A study of Drosophila simulans with 22 samples.

Results

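Broad gene promoters are described here in embryos of Drosophila simulans, a close relative of D. melanogaster. RAMPAGE selects cDNAs that reach the capped 5′ end of their RNA, and each read therefore begins at a transcription start site. A cluster of such sites (a TSC) stands for 1 promoter. Members were chosen by measured width and signal: a TSC counted as a broad promoter when the authors had assigned it to a gene, when it was at least 150 bp wide, and when its value in the authors' TSC list was at least 1000. These conditions gave 1396 of the 25410 TSCs in the list, or 8.04% of the 17370 gene-assigned TSCs and 24.7% of the 5663 gene-assigned TSCs that passed the list value. The list gives a TSC shared by several genes once for each of them, so the 1396 entries stand at 1370 positions, with 50 entries at 24 shared positions. Counts of promoters below are counts of entries, except for pairs within a gene. The series holds 22 samples of whole embryos of the w[501] strain, the strain of the reference genome, collected over 1 h each and aged to cover 0-1 h to 21-22 h after egg laying. No genotype or treatment differs between the samples. Each hour has 1 sample, with no replicate. The p-values set a fitted change against the scatter of single hours around the fitted curve or straight line. For a straight line, that scatter also holds any bend in the profile. Every sample is a mixture of all cell types of many embryos in a 1 h age window.

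Promoters start transcription either within a few bases or over a wide stretch of DNA. In Drosophila melanogaster, dispersed promoters are known mainly from genes that most cells use and from genes whose RNA the mother loads into the egg, and they often carry the DRE and Ohler motifs. Focused promoters are known from genes of restricted tissues and times, and more often carry a TATA box, an Initiator or a DPE. RNA found in the first hours of embryogenesis is in large part maternal, and was then transcribed in the ovary rather than in the embryo.

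The shallowest sample, 12-13 h, had 322564 reads and the next shallowest 1135813. The median depth was 2858592 and the deepest sample, 9-10 h, reached 17206157. The 1396 broad promoters held between 35.6% of reads at 21-22 h and 41.7% at 14-15 h. At least 1 read was found in every hour for 1254 of them (89.8%), against 3674 of the 4267 narrower strong gene promoters (86.1%). Of the 142 with 0 reads in some hour, 60 were at 0 in the shallow 12-13 h sample and 34 were at 0 in that sample alone, where 3 reads are 9.30 RPM (reads out of 1000000 after scaling each sample's total). The narrower strong gene promoters met the same conditions but were under 150 bp wide, and are given below as 3668 intermediate promoters of at least 50 bp and 599 promoters under 50 bp.

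The selection used width and list value, and the following values describe it. Width had quartiles of 176, 221 and 291 bp and a maximum of 1050 bp, with 322 TSCs at least 300 bp wide and 51 at least 500 bp wide. The list value had a median of 7083, against 3218 for narrower strong gene promoters, and the mean RPM over the 22 hours had a median of 80.0 for broad and 36.3 for narrower ones. The list value is close to a read total, with a median of 0.796 per read of the expression table, so signal level was also part of the selection. Among all 5663 strong gene promoters, Spearman's correlation of width with list value was 0.37, and both come from the same pooled reads. Within the broad set it was -0.10. The 3 members just inside the width limit (FBgn0183513_01, FBgn0193408_02 and FBgn0195230_01) were 150 bp wide with list values of 45278, 29175 and 25232. The 3 just outside it (FBgn0192119_03, FBgn0186382_02 and FBgn0188176_01) were 1 bp narrower, with list values of 470886, 39480 and 34567. Just inside the limit on list value stood FBgn0187801_08, FBgn0191218_03 and FBgn0187697_02, with 1000, 1005 and 1005. Just outside it were FBgn0184004_01, FBgn0196243_01 and FBgn0193342_05, with 998, 996 and 992.

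The 1396 TSCs belonged to 1290 genes, with 718 on the plus and 678 on the minus strand. A single broad promoter was found in 1200 genes, a pair in 78 genes, and 3 to 5 in 12 genes. By chromosome arm, 373 lay on 3R, 283 on 2R, 273 on 3L, 227 on 2L, 220 on X and 20 on the dot chromosome 4. The share of strong gene promoters that were broad was 21.4% on 2L, 24.0% on 2R, 22.0% on 3L and 25.3% on 3R. It was 32.5% on X (220 of 676; 95% Wilson interval 29.1% to 36.2%) and 60.6% on chromosome 4 (20 of 33; 43.7% to 75.3%). These intervals cover counting error only and treat promoters as separate draws, although those of 1 gene are not. Positions are on the FlyBase r1.4 genome, counted from 1, and genes are given by their FlyBase numbers, since the tables used here do not pair those numbers with names.

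To ask how the RNA signal of promoters moved over embryogenesis, a smooth curve of hour was fitted to log2(RPM + 1) of every TSC that reached 2 RPM, with limma. A change with hour passed a Benjamini-Hochberg adjusted p of 0.05 for 1299 of 1396 broad promoters (93.1%), against 82.1% of all 20118 TSCs tested and 93.7% of the narrower strong gene promoters. The fitted curve of a broad promoter spanned a median of 3.14 on the log2 scale (quartiles 2.08 and 4.85), and the residual SD of single hours around it had a median of 0.53. The corresponding median spans were 2.74 for intermediate promoters and 5.42 for those under 50 bp. With edgeR (quasi-likelihood, reads recovered from RPM), 1294 of the 1396 passed, with a background of 93.6% of 14494 TSCs. In these whole embryos, fewer cells of a type and less RNA per cell cannot be told apart, and RPM is a share of each sample's reads.

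A straight line of hour gave each promoter a direction, expressed as the fitted log2 change between the first and the last sample. Falling trends outnumbered rising ones. In limma, 774 broad promoters fell (55.4%, background 34.6%) and 222 rose (15.9%, background 23.3%) at an adjusted p of 0.05, and 400 passed in neither direction. Intermediate promoters had shares of 57.6% falling and 11.4% rising, and those under 50 bp had 18.5% falling and 50.6% rising. The median fitted change was -1.55 for broad promoters, against -1.57 for intermediate promoters, 2.32 for under 50 bp and -0.43 for all TSCs tested. Falling broad promoters had a median change of -2.87, and 184 of the 774 fell by at least 16-fold on the fitted line. Rising ones had a median change of 4.73, and 137 of the 222 rose by at least 16-fold. edgeR called 808 falling (background 42.2%) and 191 rising (background 25.5%).

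The balance of directions moved with the scaling of the samples. With TMM factors in place of total reads, 646 broad promoters fell and 268 rose, against 29.6% falling and 27.0% rising of all TSCs tested. With DESeq2 size factors, 509 fell and 365 rose, against 22.3% falling and 30.8% rising of all TSCs tested. The rising share of the trend calls of broad promoters was then 41.8%, against 22.3% with total reads. The median fitted change of all TSCs moved to -0.14 with TMM and 0.18 with DESeq2 factors. Relative to that median, broad promoters stood at -1.12 with total reads, -0.88 with TMM and -0.61 with DESeq2 factors, and falling calls outnumbered rising ones under all 3 scalings.

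**Figure D1:**
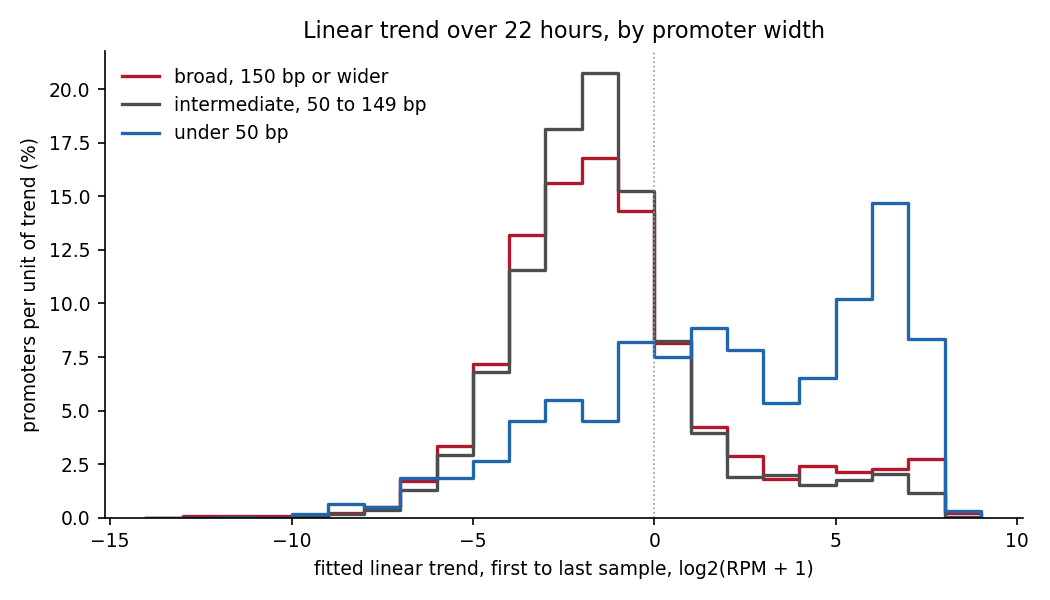
Distribution of the fitted linear change between the first and the last sample on log2(RPM + 1) (x axis), as the percentage of promoters per unit of change (y axis), for 1396 broad, 3668 intermediate and 599 promoters under 50 bp. Broad and intermediate promoters share a main mass below 0 (medians -1.55 and -1.57), broad ones have 103 promoters at 5 or above, and promoters under 50 bp have a median of 2.32.

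The hour of the highest value placed 482 broad promoters in 0-3 h (34.5%), 251 in 3-6 h (18.0%), 323 in 6-12 h (23.1%), 209 in 12-16 h (15.0%) and 131 in 16-22 h (9.38%). Over all 25410 TSCs, the shares in the same order were 21.4%, 15.9%, 24.2%, 21.6% and 16.9%. The shares of broad promoters in 3-6 h and 6-12 h were thus near those of all TSCs. Of intermediate promoters, 41.2% were highest in 0-3 h and 6.65% in 16-22 h. For those under 50 bp, the shares were 11.0% in 0-3 h and 33.4% in 16-22 h. The single hours that were highest for most broad promoters were 1-2 h (165), 0-1 h (161), 2-3 h (156) and 3-4 h (135), followed by 13-14 h (84) and the shallow 12-13 h sample (78). The share highest at 12-13 h or 13-14 h was 11.6% with total reads, 3.87% with TMM and 8.24% with DESeq2 factors, so the place of these 2 hours in the order also rests on the scaling. Under TMM factors the share in 16-22 h was 20.5%, and under DESeq2 factors 24.3%, so the size of the late group rests on the scaling.

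A called direction does not give the hour of the maximum. Of the 774 falling broad promoters, 401 were highest in 0-3 h (51.8%), 223 in 3-6 h (28.8%) and 130 in 6-12 h (16.8%). Of the 222 rising ones, 108 were highest in 16-22 h (48.6%) and 74 in 12-16 h (33.3%). The 400 with no trend call were most often highest in 6-12 h (160), and 307 of them passed the test of a smooth change. The median share of a broad promoter's own signal was 5.41% at 1-2 h, stayed between 4.52% and 5.22% through 11-12 h, and reached its lowest value of 1.75% at 17-18 h. An even profile would put 4.55% in each hour.

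**Figure D2:**
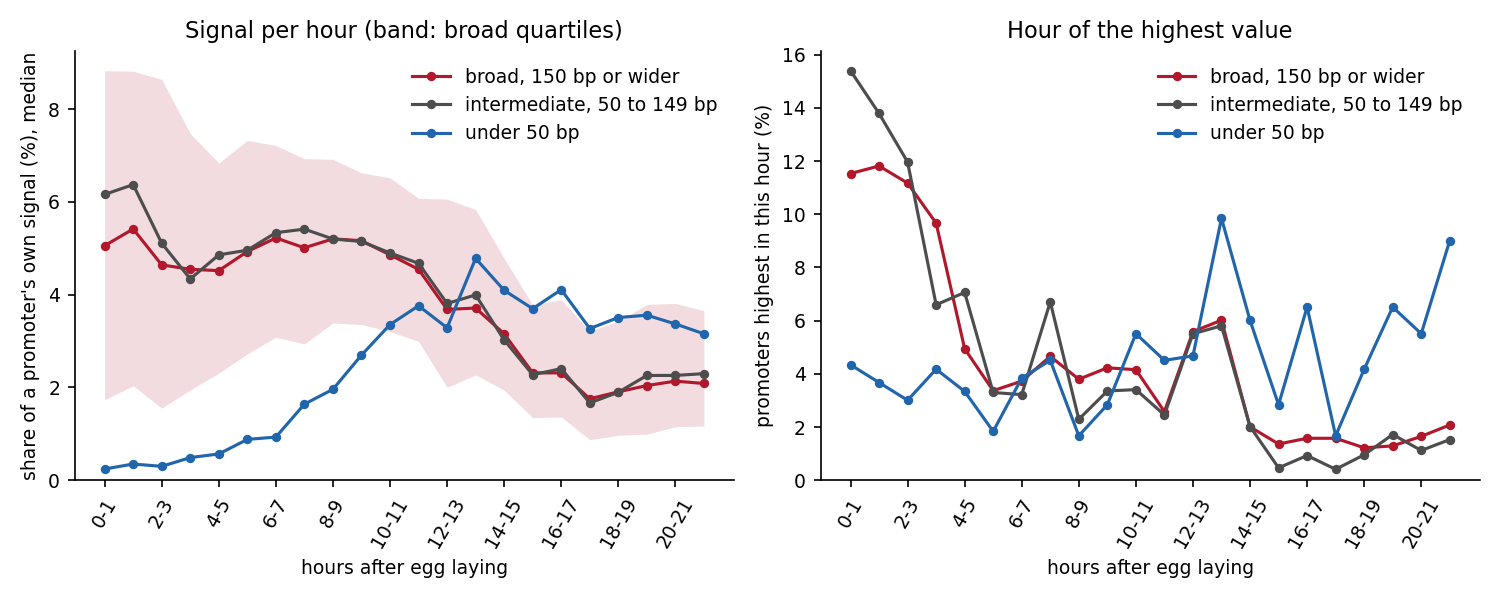
Left, the median share of a promoter's own summed RPM (y axis, %) by hour after egg laying (x axis), with quartiles shaded for broad promoters. Right, the percentage of promoters whose highest value fell in each hour. Broad promoters (red) run close to intermediate promoters (grey) with 11.8% highest at 1-2 h, and promoters under 50 bp (blue) start at a median of 0.240% and peak at 4.78% at 13-14 h.

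Evenness over the series was measured in 3 ways. A promoter was called steady when its highest RPM was under 5 times its lowest, and windowed when at least 60% of its summed RPM fell in 8 consecutive hours, both among TSCs that reached 10 RPM. Of the broad promoters, 158 were steady (11.3%, background 5.52%), 734 were windowed (52.6%, background 61.9%) and 504 were neither (36.1%). The shares were 9.79% steady and 43.9% windowed for intermediate promoters, and 1.84% and 80.5% for those under 50 bp. Shannon entropy of the hourly profile, which is 3.09 for 22 equal hours, had a median of 2.84 for broad promoters (quartiles 2.63 and 2.96), 2.88 for intermediate promoters and 2.51 for under 50 bp. Its difference from all narrower strong gene promoters together (2.85) was -0.01 and changed sign with the limits of the selection and with thinning to equal depth.

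Across bins of width the windowed share was not monotonic. It was 84.3% under 25 bp and 40.7% at 100 to 124 bp, and lay between 49.7% and 56.6% in the 6 bins from 150 bp upwards. Within the broad set, width had almost no relation with entropy (Spearman's correlation -0.01 over 1396 promoters) or with the share of signal in the best 8 hours (-0.00). Broad promoters were windowed more often than intermediate ones at like list values also. Between 2000 and 5000, 58.2% of 323 broad promoters were windowed, against 43.3% of 1296 intermediate promoters, and at 10000 or more the shares were 47.2% of 595 and 42.4% of 675. At list values of 1000 to 2000, 2.31% of broad and 5.00% of intermediate promoters were steady. The shares were 10.6% and 13.3% between 5000 and 10000, and 16.1% and 17.3% at 10000 or more. Between 2000 and 5000 broad promoters had the higher share, 10.2% against 7.79%. The steady share of broad promoters also moved with depth and scaling. It was 7.31% after every sample was thinned to 322564 reads and 18.5% under DESeq2 factors. With total reads 11.3% of broad and 8.67% of all narrower strong gene promoters were steady, with TMM factors 14.1% and 13.4%, and with DESeq2 factors 18.5% of each, so the difference in steady share depended on the scaling.

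**Figure D3:**
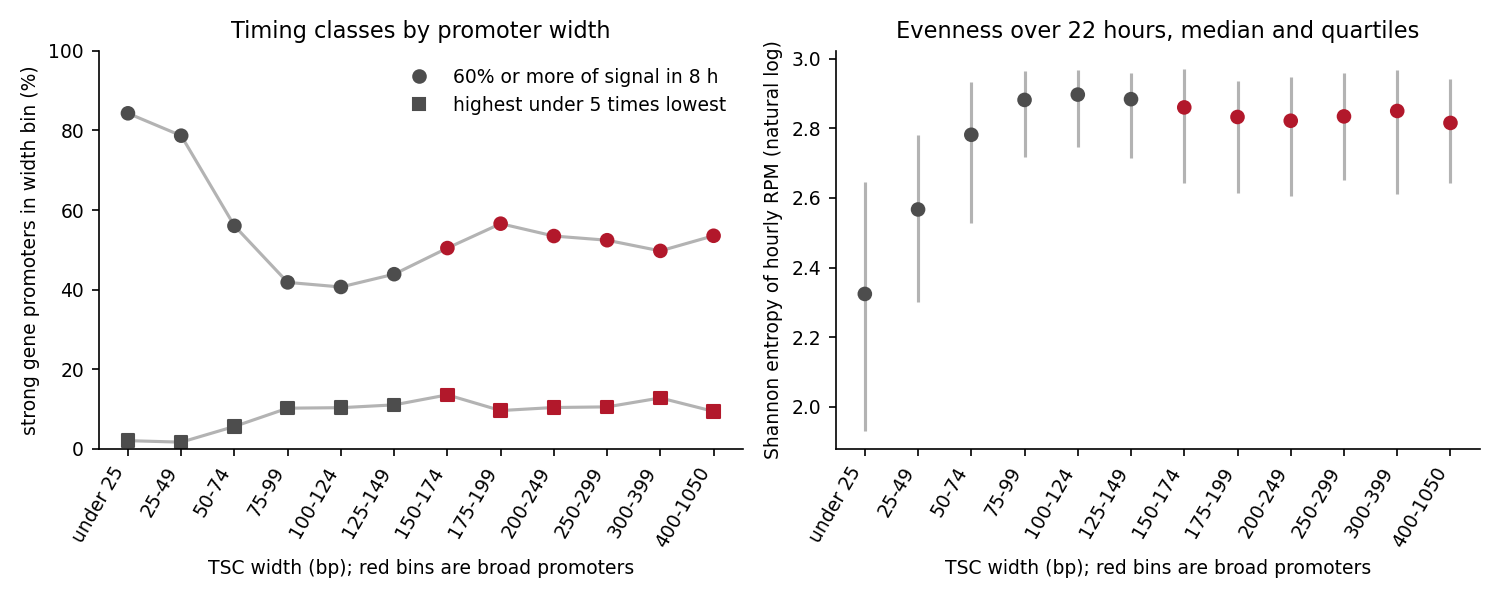
Strong gene promoters by TSC width (x axis, bp), with broad bins in red. Left, the percentage windowed (circles, at least 60% of signal in 8 h) and steady (squares, highest under 5 times lowest). Right, the median entropy of the hourly profile with quartiles as bars. The windowed share is 84.3% in the narrowest bin, lowest at 40.7% for 100 to 124 bp, and 50.5% to 56.6% in the 3 bins from 150 to 249 bp.

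Steady broad promoters were also the stronger ones, with a median mean RPM of 163, against 69.7 for windowed and 79.8 for the remaining broad promoters. The smooth change test still passed for 102 of the 158 (64.6%), 55 of them with a falling and 4 with a rising trend. All 734 windowed broad promoters passed it. Both classes and the test use the same hourly values, so these pass rates are a description only. The steady promoter with the smallest ratio was FBgn0193613_01 (chromosome 2L, 10801429 to 10801754, minus strand, 326 bp), with 90.6 RPM at 7-8 h as its lowest value, a median of 122 and 174.6 at 13-14 h as its highest, a ratio of 1.93. FBgn0193254_02 (2L, 18130527 to 18130874, 348 bp) had a lowest value of 213 RPM, a median of 363 and a highest of 452, and FBgn0193055_01 (2L, 21237860 to 21238040, 181 bp) had 262, 501 and 633. Neither of these nor FBgn0193613_01 passed the smooth change test, with adjusted p of 0.158, 0.144 and 0.39 in limma. FBgn0186548_01 (3L, 19697781 to 19697978, 198 bp) ran between 191 and 469 RPM around a median of 255 and did pass (adjusted p = 0.00506, span 0.98), with its 5 highest values in consecutive hours at 7-8 h to 11-12 h. All 4 held a value within a 2.45-fold range in samples whose depth differed far more.

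The widest member was FBgn0187170_02 (X, 16221835 to 16222884, minus strand, 1050 bp), 1 of 2 TSCs of its gene, with 63.1% of the gene's TSC signal. It had 212, 634 and 317 RPM in the first 3 hours, between 109 and 147 RPM from 3-4 h to 6-7 h, and at most 41.0 RPM in every later hour, and fell by 5.27 ± 0.56 on the log2 scale (SE of the fitted line, adjusted p = 1.37e-08). FBgn0196707_04 (2R, 12776130 to 12777073, 944 bp) had its highest value of 393 RPM at 4-5 h and its lowest of 14.7 at 20-21 h, and fell by 3.99 ± 0.49 (adjusted p = 1.29e-07). It carried 19.2% of the signal of a gene with 5 TSCs. FBgn0083432_10 (2L, 6720299 to 6721126, 828 bp) had 228 RPM at 3-4 h and 20.4 at 21-22 h, and fell by 2.91 ± 0.39 (adjusted p = 5.94e-07), with 1.76% of the signal of a gene with 10 TSCs. The 3 peaked at different hours, 1-2 h, 4-5 h and 3-4 h, and each had its lowest value at 19-20 h or later.

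The remaining one of the 4 widest, FBgn0067505_03 (2R, 5715110 to 5715981, minus strand, 872 bp), moved the other way. Its lowest value was 45.9 RPM at 2-3 h, its median 1980.2 and its highest 10006 RPM at 21-22 h, and it rose by 7.05 ± 0.67 (adjusted p = 2.33e-09). On the same strand and 2772 bp away stood FBgn0197204_03 (2R, 5718754 to 5718963, 210 bp), the member with both the highest mean RPM and the largest rising trend. This promoter had between 326 and 3478 RPM in every hour up to 12-13 h, 22800.1 RPM at 15-16 h and its highest value of 53814 RPM at 19-20 h, which is 5.38% of all reads of that sample. It rose by 8.17 ± 0.49 (adjusted p = 1.87e-12). From 17-18 h on, all 5 values lay between 40221 and 53814 RPM.

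The other 3 of the 4 members with the highest mean differed in shape. FBgn0196759_02 (2R, 12171866 to 12172239, 374 bp) was high throughout, with 4484 RPM at 14-15 h as its lowest value, a median of 14480.0 and a highest of 21640 at 7-8 h. Its ratio of 4.83 was inside the steady limit, and its trend of -0.35 ± 0.45 did not pass (adjusted p = 0.528). FBgn0185268_02 (3L, 190606 to 190934, 329 bp) had 500, 766 and 868 RPM in the first 3 hours, 4286 at 3-4 h and at least 7107 in every later hour, up to 17229 at 14-15 h, and rose by 3.28 ± 0.64 (adjusted p = 9.85e-05). FBgn0186369_05 (3L, 16380081 to 16380380, 300 bp) lay between 167 and 1926 RPM up to 9-10 h and between 11914 and 21947 RPM from 11-12 h on, and rose by 7.43 ± 0.80 (adjusted p = 1.63e-08). Such promoters weigh on the totals. The 12 strongest broad promoters held 22.4% of the summed RPM of all broad ones, and the share of reads held by broad promoters without these 12 was 34.8% at 2-3 h and 21.3% at 18-19 h.

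Further large rising trends began from low levels. FBgn0193442_01 (2L, 13688844 to 13689003, 160 bp) had 1.89 RPM at 2-3 h, a median of 26.3 and 744 at 15-16 h, and stayed between 369 and 632 RPM in the 6 hours that followed (trend 8.05 ± 0.78, adjusted p = 3.4e-09). FBgn0185618_01 (3L, 5536557 to 5536789, 233 bp), the single TSC of its gene, had 1.36 RPM at 1-2 h, a median of 25.3 and 667 at 21-22 h (trend 8.04 ± 0.75, adjusted p = 1.94e-09). FBgn0191853_03 (3R, 10459859 to 10460057, 199 bp) had 18.3 RPM at 1-2 h, a median of 171 and 4294 at 20-21 h (trend 7.95 ± 0.47, adjusted p = 1.84e-12). In all 4 of the largest rising members, every value from 15-16 h on was above every value before 13-14 h.

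The 4 largest falling trends belonged to promoters that were highest at 3-4 h, after the first hours and not in them. FBgn0195412_02 (2L, 16037591 to 16037813, 223 bp) had 108, 307 and 1082 RPM in the first 3 hours, 5189 at 3-4 h, 3771 at 6-7 h and 57.6 at 11-12 h, and had 0 reads in 3 late samples. Against 3 reads in the deepest of those, 17-18 h, that is at least 3351-fold lower than at 3-4 h. FBgn0192044_02 (3R, 13178744 to 13179046, 303 bp) had 74.0 RPM at 0-1 h, 4082 at 3-4 h, 421 at 6-7 h and 12.0 at 8-9 h, and had 0 reads in 5 samples, at least 13732-fold lower at 16-17 h by the same measure. FBgn0182735_01 (2R, 7886543 to 7886956, 414 bp), the single TSC of its gene, had 28.1 RPM at 0-1 h, 1851 at 3-4 h and 0 reads at 18-19 h, at least 895-fold lower. FBgn0193359_07 (2L, 15440894 to 15441169, 276 bp) had 15.4 RPM at 0-1 h, 678 at 3-4 h and 0 reads in 2 late samples, at least 643-fold lower at 21-22 h. Their fitted trends on the log2(RPM + 1) scale were -12.77, -11.16, -10.34 and -9.07 with adjusted p between 4.31e-08 and 5.4e-07 in limma. These depend on the pseudocount of 1, since late values are at or near 0, and are not bounds. In each of the 4, the values at 2-3 h to 6-7 h were higher than at 0-1 h and than at every hour from 11-12 h on.

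Among the members highest between 3 and 18 h, the largest fitted spans were pulses. FBgn0195412_02, described above, had the largest span of 11.82. FBgn0185348_01 (3L, 1255563 to 1255769, 207 bp) had 18.0 RPM at 0-1 h, 4814 at 6-7 h, 8356 at 10-11 h, 275 at 14-15 h and 0 reads at 19-20 h, a span of 11.67 (adjusted p = 7.06e-15). Its linear trend of -6.47 ± 2.23 passed in limma (adjusted p = 0.0151) and not in edgeR (adjusted p = 0.12). FBgn0185043_02 (3L, 3050523 to 3050673, 151 bp) stayed between 14.9 and 173 RPM up to 8-9 h, had 584 at 9-10 h, 4486 at 11-12 h, 5177 at 12-13 h and 12.6 at 15-16 h, and had 0 reads in the last 3 samples (span 11.66, adjusted p = 9.55e-10). FBgn0184906_01 (3L, 5109877 to 5110098, 222 bp) was at or below 6.97 RPM up to 5-6 h, had 2730 RPM at 10-11 h, 2514 at 11-12 h and 1572 at 12-13 h, and 0 reads in the last 4 samples (span 11.41, adjusted p = 2.59e-15). At 10-11 h or 12-13 h these 3 promoters were at least 3228-, 4912- and 2590-fold higher than 3 reads in the deepest later sample with 0 reads. For FBgn0185348_01 that bound holds for 19-20 h alone, since it had 3.67 RPM at 20-21 h and 5.62 RPM at 21-22 h. Neither FBgn0185043_02 nor FBgn0184906_01 passed the test of a linear trend (adjusted p of 0.0549 and 0.449).

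**Figure D4:**
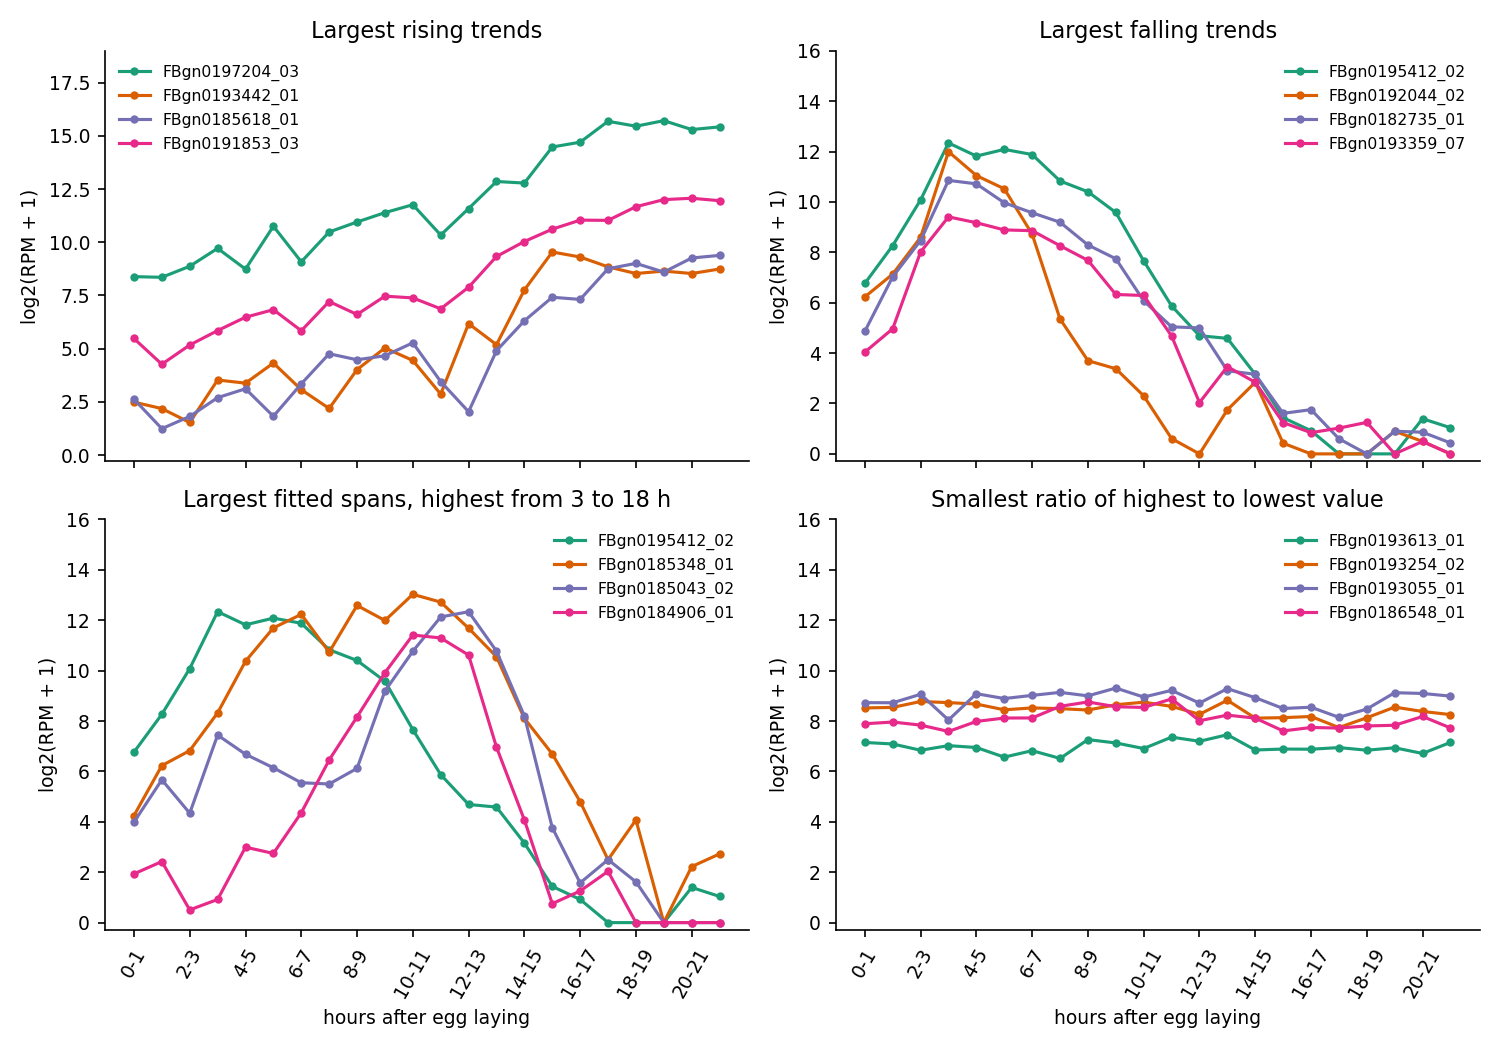
Log2(RPM + 1) (y axis) by hour after egg laying (x axis) for 4 sets of broad promoters, with 1 point per sample and 0 reads at the value 0. The largest rising trends reach up to 53814 RPM late, the largest falling trends all peak at 3-4 h, the largest spans peak between 3-4 h and 12-13 h, and the steadiest promoters stay within 2.45-fold.

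The place of a broad promoter within its gene was compared next. It was the only TSC of its gene for 437 of 1396 (31.3%), against 45.5% of intermediate promoters and 45.2% of those under 50 bp. In genes with more than 1 TSC, a broad one was the most upstream in 51.3% of cases (492 of 959), against 61.0% of intermediate promoters and 40.9% of those under 50 bp. In these genes it held the largest part of the gene's TSC signal in 78.0% of cases (748 of 959), against 87.7% of intermediate promoters and 70.7% of those under 50 bp. Wide TSCs downstream of a stronger promoter of the same gene are included, as FBgn0083432_10 shows. A TSC on the opposite strand lay within 500 bp upstream for 450 broad promoters (32.2%; 29.8% to 34.7%), against 41.0% (39.4% to 42.6%) of intermediate promoters and 10.4% (8.16% to 13.0%) of those under 50 bp. Distances ran between TSC centres, so at a like gap between edges the limit was stricter for wider TSCs.

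Broad promoters with and without such an opposite-strand neighbour were counted separately. Of the 450 with one, 299 fell (66.4%) and 30 rose (6.67%), and of the 946 without, 475 fell (50.2%) and 192 rose (20.3%). Of all TSCs tested, 34.6% fell and 23.3% rose. The steady share was 15.6% with and 9.30% without, and the windowed share 45.3% with and 56.0% without. Among all TSCs that reached 10 RPM, 5.52% were steady and 61.9% windowed. Narrower promoters were not split in this way, so the contrast is not shown to be particular to broad promoters. Width and level were close in both, with median widths of 218 and 223 bp and median mean RPM of 91.1 with and 75.9 without. These are counts over promoters and carry no test.

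Timing was also counted by chromosome, without a test. On X, 97 of 220 broad promoters were highest in 0-3 h (44.1%), against 29.3% to 34.8% on the 4 autosomal arms, and on chromosome 4 the count was 8 of 20. Of all TSCs, 21.4% were highest in 0-3 h. The timing of narrower promoters was not counted by chromosome, so the X value is not shown to be particular to broad promoters. X members were weaker, with a median mean RPM of 47.0, against 73.5 to 115 on the autosomal arms. On chromosome 4, 7 of the 20 rose and 9 fell, while 23.3% of all TSCs tested rose and 34.6% fell. The median fitted change of the chromosome 4 members was 0.12, against -1.81 on X and between -1.67 and -1.27 on the autosomal arms.

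Genes with several promoters allow a comparison within the gene. With each pair of positions counted once, Pearson's correlation of RPM over the 22 hours had a median of 0.76 (quartiles 0.36 and 0.89) for 126 pairs of broad promoters in 90 genes, and 14 pairs (11.1%) had a negative value. Both members of a pair were read from the same samples, so these values are a description. For 312 pairs of a broad and a narrower strong promoter in 219 genes, the median was 0.61 (quartiles 0.18 and 0.81), with 62 negative pairs (19.9%), and in 132 pairs (42.3%) the highest hours were at least 4 h apart. In 176 of these 312 pairs the broad promoter had the higher entropy, and in 159 it had more reads. These pooled counts differed by the width of the partner. In the 243 pairs with an intermediate promoter, the median entropy difference (broad minus narrower) was 0.0027. The broad promoter had more reads in 110 of them. In the 69 pairs with a promoter under 50 bp, the median difference was 0.068. Here the broad promoter had the higher entropy in 51 pairs and more reads in 49.

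The pairs with the most opposed profiles were chosen after their values were seen. In gene FBgn0187834 (3R, minus strand), FBgn0187834_01 of 159 bp had between 282 and 398 RPM in the first 4 hours and at most 117 RPM in every later hour. FBgn0187834_02 of 273 bp, 49767 bp downstream between centres, had 1.98, 1.64 and 2.10 RPM in the first 3 hours, 36.9 at 3-4 h and 106 at 9-10 h. In gene FBgn0190514 (3R, minus strand), FBgn0190514_06 of 162 bp had at most 9.51 RPM up to 6-7 h, 65.3 at 7-8 h and 120.0 at 18-19 h. The second broad promoter of that gene, FBgn0190514_09 of 249 bp, had 229 RPM at 3-4 h, 203 at 10-11 h and 41.5 at 21-22 h. In both genes 1 promoter was at or below 2.10 RPM in the first 3 hours, while the other was at or above 124.5 RPM.

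Opposed profiles also joined a broad and a narrower promoter. In gene FBgn0186370 (3L, plus strand), the broad FBgn0186370_02 of 242 bp lay between 45.0 and 90.7 RPM up to 11-12 h and between 11.2 and 22.9 RPM from 15-16 h on. The 63 bp promoter FBgn0186370_01 of that gene had at most 6.98 RPM up to 6-7 h and 447 at 17-18 h. In gene FBgn0046913 (3R, plus strand), the broad FBgn0046913_01 of 151 bp had its highest value of 1008 RPM at 3-4 h and 35.6 at 17-18 h. The 57 bp promoter FBgn0046913_03 had at most 5.71 RPM up to 6-7 h and 50.2 at 14-15 h, and the 37 bp promoter FBgn0046913_02 had 54.2 at 20-21 h. In FBgn0186370 the broad promoter was the higher one in every hour up to 9-10 h and the lower one in every hour from 14-15 h on. In FBgn0046913 the broad promoter stayed above both narrower ones in every hour, with 35.6 RPM against 21.7 and 22.7 at 17-18 h.

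**Figure D5:**
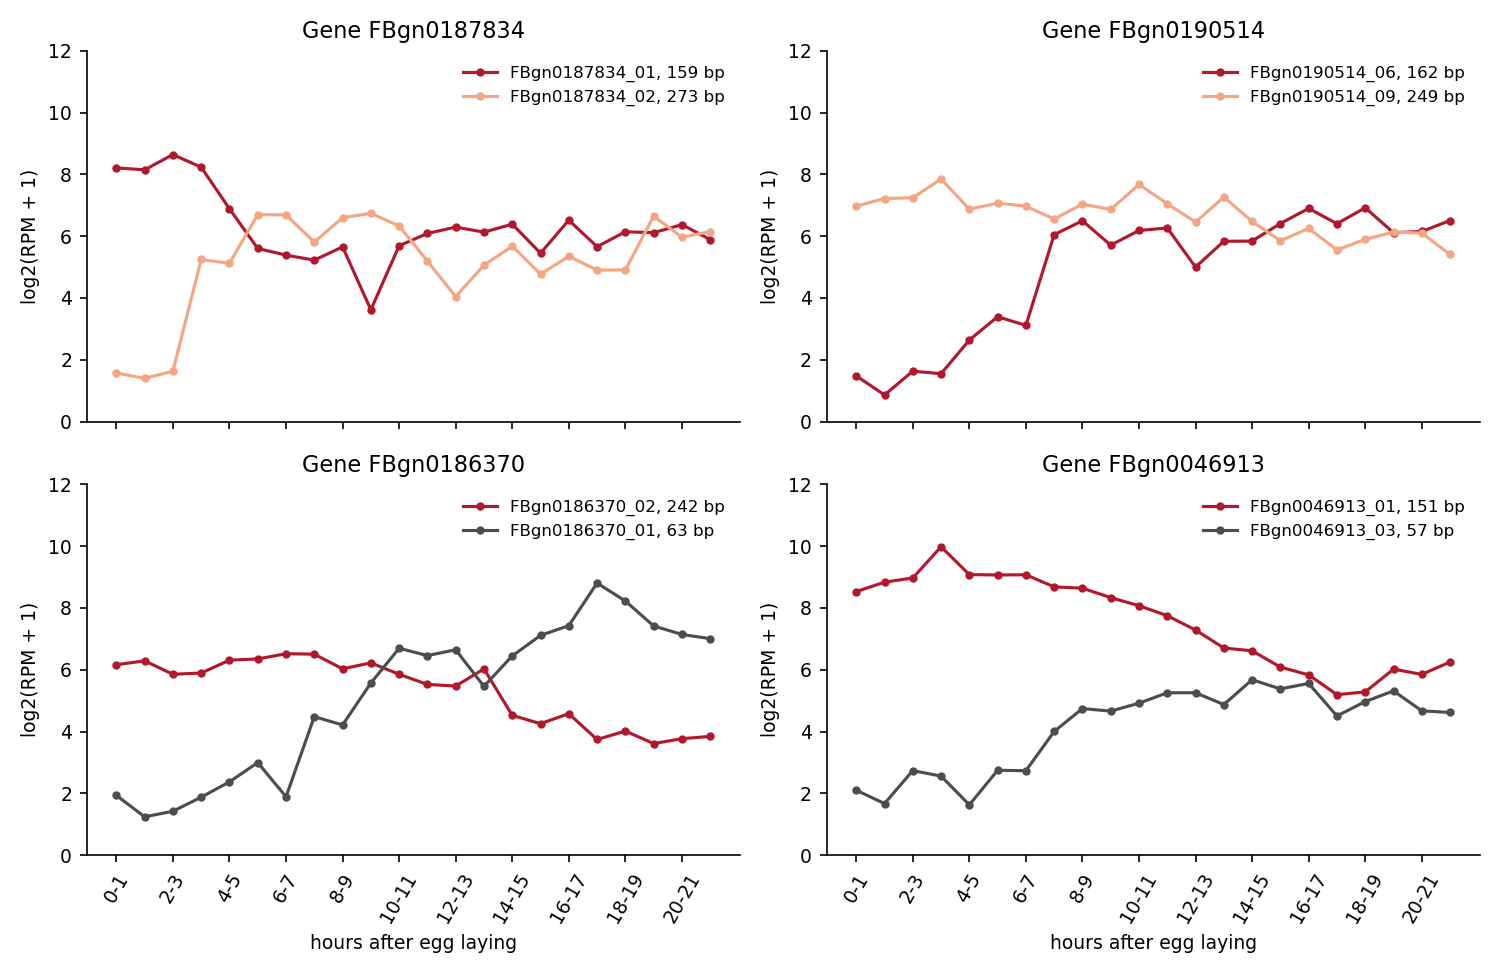
Log2(RPM + 1) (y axis) by hour after egg laying (x axis) for 2 promoters in each of 4 genes. The upper pair of panels shows broad promoters (red and pale red), and the lower pair shows a broad promoter (red) with a narrower one (grey) of 63 or 57 bp. In each panel 1 promoter is at or below 5.66 RPM in the first 3 hours and the other is at or above 56.8 RPM.

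Opposed profiles were not the usual case among broad promoters of 1 gene. Of the 126 pairs, 14 had a negative correlation, and in 45 (35.7%) the highest hours were at least 4 h apart. The 3 genes with 4 or more were chosen for that count. FBgn0183289 (2R, plus strand) had 4 between 15485817 and 15487821, of 174, 199, 436 and 177 bp, with mean RPM of 4980, 94.7, 932 and 107. All 4 had their lowest value by 2-3 h and their highest at 12-13 h to 17-18 h, and the correlations of their 6 pairs ran from 0.76 to 0.96. The last of the 4 is also listed under gene FBgn0256446. FBgn0068687 (X, plus strand) had 4, all highest at 0-1 h or 2-3 h, with correlations from 0.72 to 0.91. FBgn0190385 (3R, minus strand) had 5 of 163 to 361 bp, with correlations from -0.04 to 0.90. Its strongest, FBgn0190385_01, had 3568 RPM at 2-3 h and 534 at 18-19 h, while FBgn0190385_04 had 0.753 RPM at 0-1 h and 77.9 at 9-10 h.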

How the data were processed

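Reads were mapped by the authors with STAR to FlyBase r1.4 of D. simulans, and TSCs were called with their own peak caller on pooled reads of the series, with peaks over rDNA repeats removed. The authors deposited RPM for each TSC and sample, and a TSC list with a whole-number score per peak (the list value), whose meaning the sources do not state. Duplicate reads are unmarked, and every interval or floor covers only counting error. Dividing RPM by the value of 1 read gave whole reads (within 0.01) for 100% of values, and these give depth. A TSC listed under several genes holds its reads in each entry, and such repeats made up 0.354% to 0.822% of a sample's reads. Tables of genes and of aligned profiles were not used here.

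Samples were not grouped: each hour is 1 sample. The paper states that samples of a series were barcoded during reverse transcription and pooled into a single library. Since the unit is RPM, limma 3.58.1 (R 4.3.3) gave the main result, with a natural spline of hour (4 degrees of freedom) and a linear term on log2(RPM + 1), its trend option, TSCs that reached 2 RPM, and adjustment over all of them. edgeR 4.0.16 on recovered reads was an alternative and called 13565 of 14494 TSCs. Scaling, pseudocount, filter, spline, left-out hours, thinning to 322564 reads and both selection limits were also varied. The fits were tested on simulated reads. Members and lists were chosen with earlier results of these data known. The named members are the 4 widest, the 4 highest in mean RPM, the 4 steadiest by ratio of highest to lowest RPM (among those reaching 25 RPM), the 4 largest rising and falling trends, the 4 largest spans with a maximum from 3 to 18 h, and those at the limits. Promoter motifs and gene names were not analysed here. Intervals are 95% Wilson intervals.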

Additional observations from a re-analysis of the deposited data

How the results depend on the processing

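No paired analysis was possible because each hour has 1 sample. With DESeq2 size factors, 26.1% of broad promoters rose and 36.5% fell, against 30.8% and 22.3% of all TSCs tested, 18.5% were steady, as of narrower strong gene promoters (18.5%), 43.8% were windowed and 28.2% were highest in 0-3 h. With TMM factors, 14.1% were steady (narrower 13.4%) and 48.6% windowed. Thinned to the shallowest sample, 7.31% were steady and the entropy difference from narrower strong gene promoters was 0.0023. Without the 2 shallowest samples, 63.0% were windowed, against 59.7% of narrower strong gene promoters. With fewer hours left, 8 hours are a larger part of the series, so part of this rise is by construction. A width limit of 100 bp gave 46.3% windowed, 39.5% highest in 0-3 h and an entropy difference of 0.080, and a limit of 200 bp a difference of -0.021. List values of at least 500 gave 9.58% steady and a difference of 0.011, and of at least 2000 gave 13.4% steady and a difference of -0.025. Beyond the shorter series, the cause of these shifts was not tested. Counting each position once, chosen after seeing the data, left every share of broad promoters within its interval or within 1.5 times, with 93.0% changing smoothly, 15.7% rising, 55.8% falling, 11.5% steady and 52.6% windowed. With each hour left out in turn, 91.6% to 93.3% changed smoothly, 14.7% to 16.0% rose, 53.1% to 56.4% fell, 11.3% to 13.3% were steady, 55.6% to 59.9% were windowed (8 of 21 hours by construction), 30.4% to 38.4% were highest in 0-3 h, and the entropy difference ran from -0.013 to -0.0059. Pseudocounts of 0.5 and 5, no filter, a filter of 10 RPM, splines of 3 and 5 degrees of freedom and edgeR moved no count of calls by over 1.5 times. Depth limits falls to 0 reads and the steady class, and the single sample per hour limits every p-value.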
